A study of Mus musculus with 12 samples.

Results

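Ly6G+ spleen cells of mice aged 2 days were compared with those of mice aged 6 weeks by RNA sequencing, with 3 libraries per age. The comparison takes all libraries of these 2 ages, which makes 6 of the 12 in the series (the others are from mice aged 7 and 14 days), and all 38887 gene identifiers of the count table, of which 15494 had enough counts to test. The labels name the cells PMN-MDSC, and the title of the series places them in a study of a transitory suppressive activity of newborn neutrophils. No treatment, genotype, strain, sex or number of mice per library was given in the sources used here, so a difference in strain or sex between the ages cannot be told apart from age. Whether separate animals gave the 3 libraries of an age is not said. The p-values below therefore measure the variation among the libraries sequenced, which may be technical in part or in whole.

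Ly6G is a surface protein that in mice marks neutrophils above all other blood cells. Neutrophils form in the marrow, and around birth also in spleen and liver, through stages that make their granules in turn: primary granules with myeloperoxidase and serine proteases first, then secondary granules with lactoferrin, then gelatinase granules and secretory vesicles. PMN-MDSC is the name for cells of neutrophil type that restrain T cells, by means such as arginase, prostaglandin E2, adenosine and transforming growth factor. Interferons act through the receptors IFNAR and IFNGR and the STAT proteins, which bind short promoter elements and raise antiviral effectors, immunity GTPases and antigen presentation.

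Library totals of the 6 libraries lay between 35854257 and 38795913 counts. Levels are given as CPM, the library's counts divided by its total after TMM scaling (edgeR's correction for differences in library composition) and expressed per 1e6. Of the 2-day libraries, replicate 2 stood apart: its Spearman correlation across genes with replicates 1 and 3 was 0.971 and 0.98, against 0.992 between replicates 1 and 3. Its scaling factor was 0.828, against 1.09 and 1.0. The Y-linked genes Ddx3y and Eif2s3y were at 29.4, 36.6 and 37 CPM and at 36.2, 57 and 35.5 CPM at 2 days and at 0 in all 3 libraries of 6 weeks, so the sexes of the mice differed between the ages.

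The label of the cells was checked against 15 neutrophil markers, whose summed level was 76459, 98822 and 85741 CPM at 2 days and 90230, 114699 and 104066 CPM at 6 weeks. Those ranges overlapped, and 3 of the 15 markers were higher and 4 lower at 2 days. S100a9, a calcium-binding protein that fills the neutrophil cytoplasm, was at 14402, 24842 and 17621 CPM at 2 days and 18457, 18893 and 19542 CPM at 6 weeks. Ly6g itself was detected in every library, at 74.9, 112 and 94.4 CPM at 2 days and 180, 185 and 168 CPM at 6 weeks. Its 2-day libraries all lay below those of 6 weeks (log2 fold change -0.92 ± 0.15, adjusted p = 0.000373), the adjusted p coming from edgeR's quasi-likelihood test over all tested genes with Benjamini-Hochberg adjustment, as throughout. Markers of other cells were present as well. Those of red pulp macrophages summed to 866, 1172 and 912 CPM at 2 days and 4860, 4791 and 5108 CPM at 6 weeks, and those of mast cells to 7105, 4295 and 6886 CPM at 2 days and 1680, 1491 and 1461 CPM at 6 weeks. Almost all of the mast cell sum at 6 weeks came from Hdc, which is also found in myeloid cells and overlapped between the ages. Because these are bulk samples, fewer cells of a type and less RNA per cell cannot be told apart.

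At an adjusted p under 0.05, 3214 genes were higher at 2 days and 3049 were lower, 20.7% and 19.7% of the 15494 tested genes and 40.4% together. These shares are the reference for the list counts in the text. The median log2 fold change (2 days over 6 weeks) of all tested genes was 0.04. More than 8-fold differences were counted for 475 higher and 374 lower genes, and more than 32-fold for 199 and 102. The 2-day and 6-week libraries did not overlap for 47.2% of the tested genes, 24% with 2 days above and 23.3% with 2 days below. Without 2-day replicate 2 the number of genes higher at 2 days was 4123 and that of genes lower at 2 days 4047. Of 1032 long non-coding RNA genes 235 were higher and 98 lower, and of 13264 protein-coding genes 2840 and 2719.

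**Figure D1:**
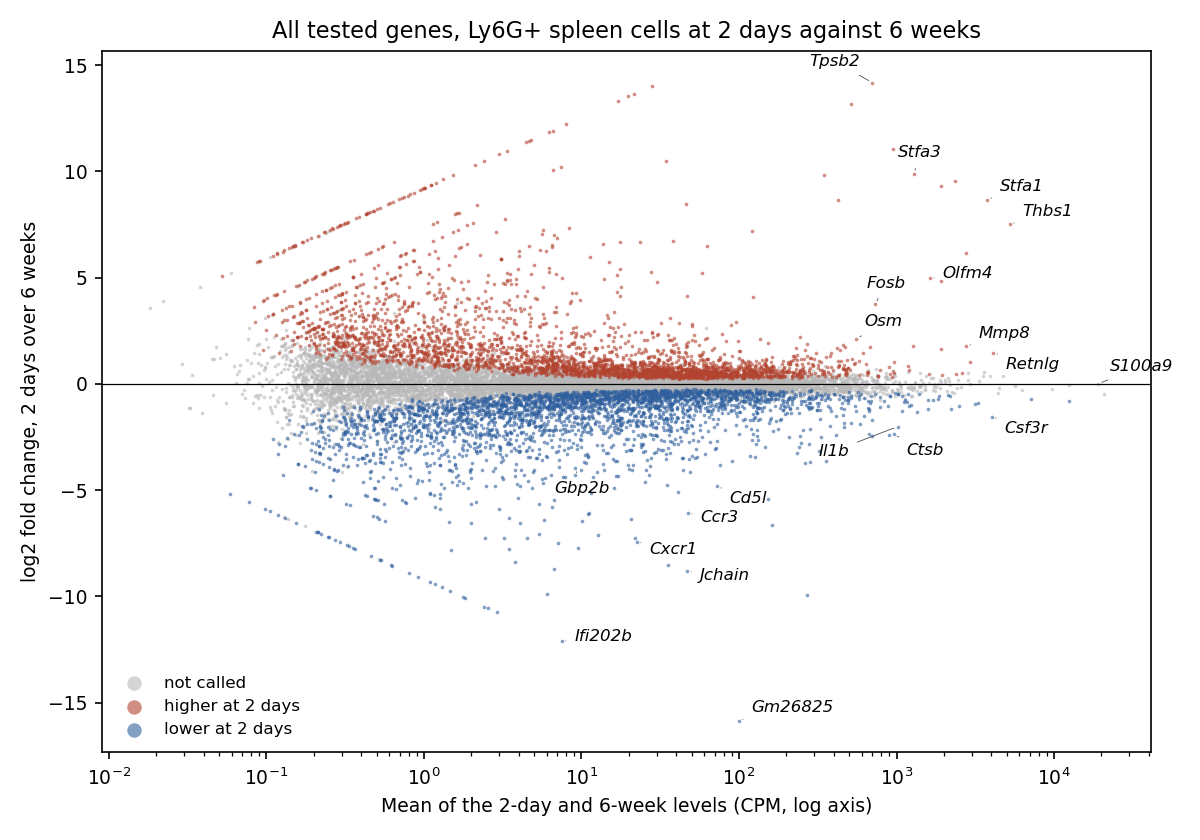
Log2 fold change, 2 days over 6 weeks (vertical axis), against the mean of the 2-day and 6-week levels in CPM (horizontal axis, log scale) for all tested genes. Each point is a gene, red where higher and blue where lower at 2 days at an adjusted p under 0.05, grey otherwise. Thbs1 (7.50) and the stefin genes stand out at high levels and large fold changes, S100a9 at a high level and no change in the mean, and the slanted lines of points at the left are genes at 0 in all libraries of an age, whose fitted fold change depends on the prior count.

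**Figure D2:**
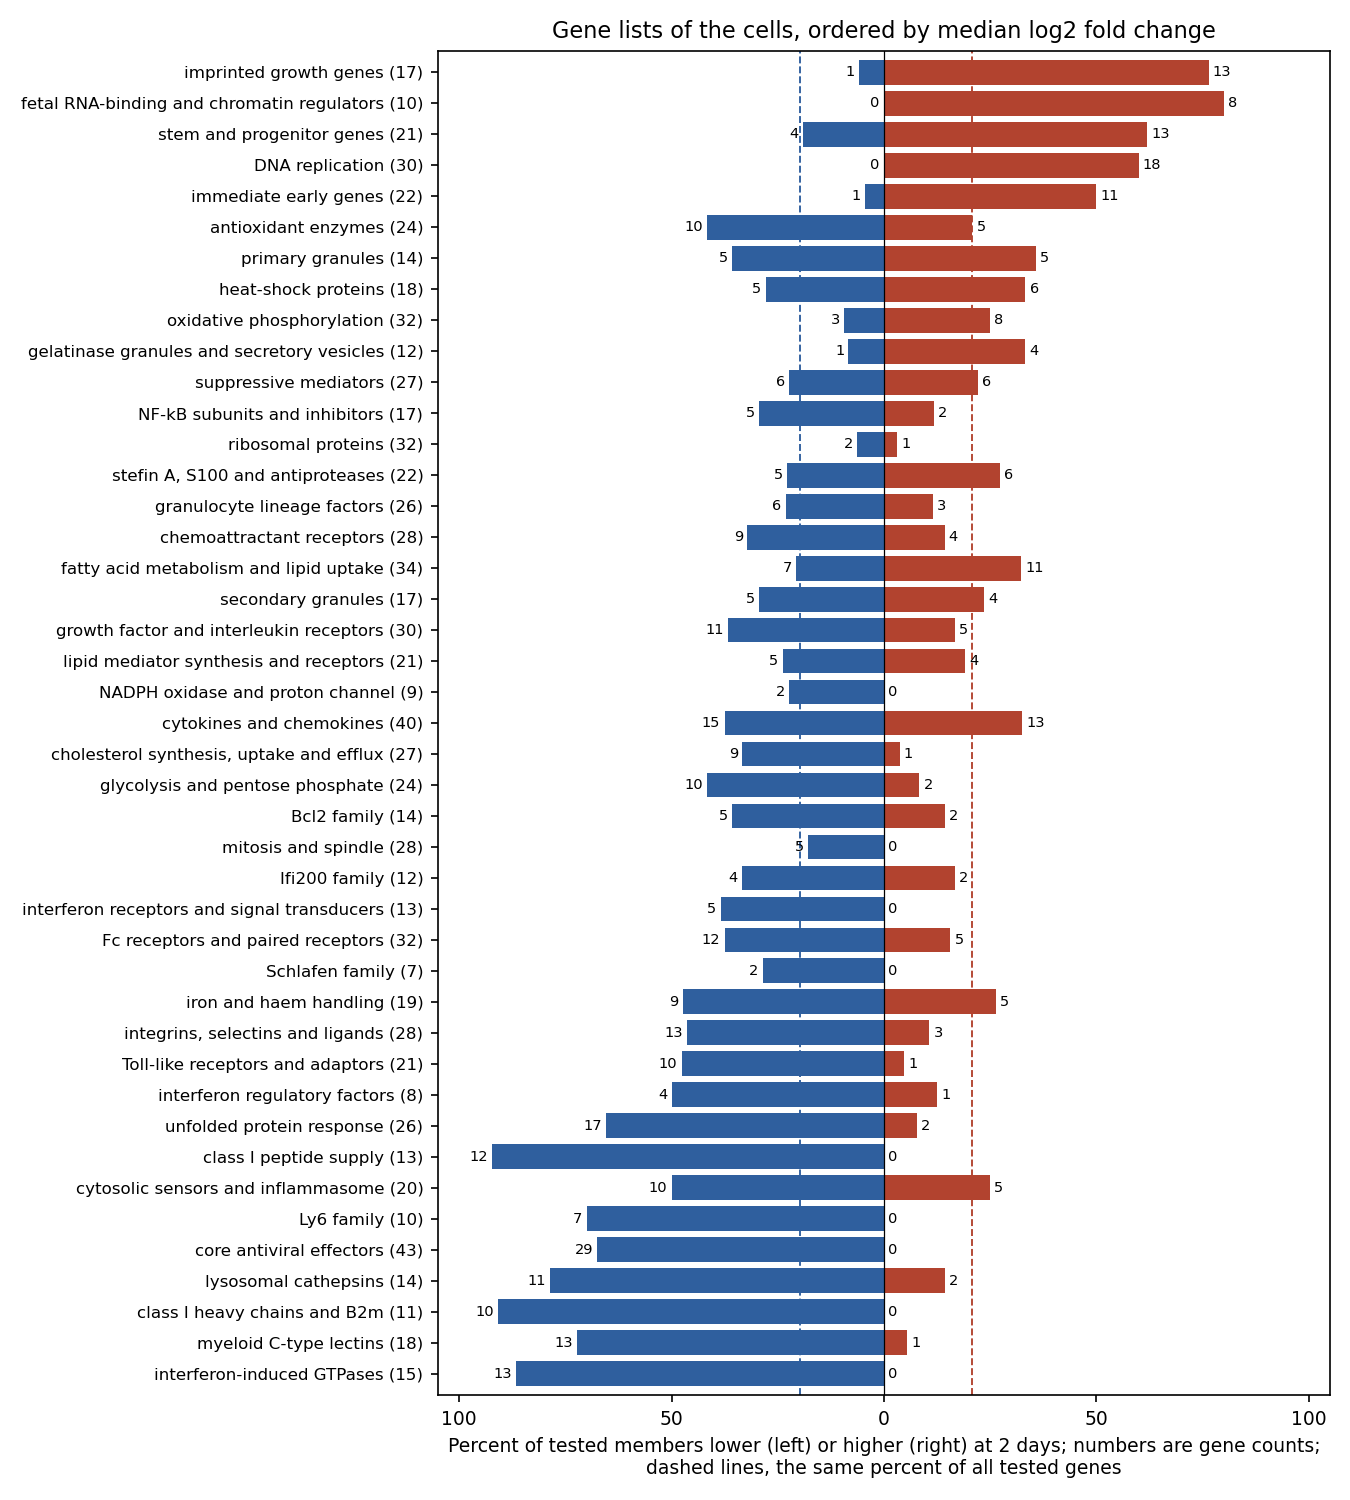
Percent of the tested members of each gene list that were lower (blue, left) or higher (red, right) at 2 days, with the number of genes beside each bar and the number tested in brackets. The dashed lines mark 19.7% lower and 20.7% higher, the same shares over all tested genes. Interferon-induced GTPases and class I genes lie far to the left of the line for lower genes, and imprinted, fetal and stem cell genes far to the right of the line for higher genes.

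The secreted glycoprotein thrombospondin 1 and the stefin A family of protease inhibitors were among the abundant transcripts with large rises at 2 days. Thbs1 (chr2:118111876-118127133, + strand in GRCm38), whose protein binds CD47 and CD36 and activates latent TGF-beta, was at 11085, 9088 and 11110 CPM at 2 days and 45.1, 60.3 and 67.6 CPM at 6 weeks. The ranges lay far apart (log2 fold change 7.50 ± 0.27, adjusted p = 4.02e-09). Its level was 5351 ± 1032 CPM at 7 days and 3327 ± 497 CPM at 14 days. Cd36, a receptor of thrombospondin 1, was at 12.3, 10.9 and 10.4 CPM at 2 days and 11.7, 14 and 14 CPM at 6 weeks, with overlapping libraries and no call (log2 fold change -0.24 ± 0.14, adjusted p = 0.191).

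Stefin A proteins inhibit cysteine proteases such as cathepsins, and mice carry a cluster of near-identical copies of the gene. Stfa1 was at 5207, 9672 and 7637 CPM at 2 days and 20.7, 15.6 and 19.5 CPM at 6 weeks. Stfa2 was at 2542, 5116 and 3820 CPM at 2 days and 7.38, 4.69 and 6.12 CPM at 6 weeks, and Stfa3 at 1974, 3232 and 2546 CPM at 2 days and 3.15, 2.7 and 2.43 CPM at 6 weeks. For all 3 genes the lowest 2-day library lay far above the highest library of 6 weeks (log2 fold changes 8.66 ± 0.30, 9.30 ± 0.35 and 9.87 ± 0.34). Their relatives BC100530 (9.52), BC117090 (8.48) and Stfa2l1 (4.86) were also higher at 2 days. In the stretch from Csta1 to Stfa3, chr16:36119946-36455392, which was chosen after the values were seen, all 16 tested genes were higher at 2 days and 0 lower. It also holds Csta1, with 0 counts at 6 weeks and at least 74-fold higher at 2 days (against a floor of 3 counts over the age), and the predicted genes Gm5483 (6.15), 2010005H15Rik (11.05) and Gm5416 (7.21). RSEM splits reads between such near-identical copies by estimate, so the share of each copy is uncertain. Cstb, the stefin outside this cluster, was at 26.9, 36.9 and 35.4 CPM at 2 days and 31.6, 27.4 and 29.6 CPM at 6 weeks, with overlapping libraries and no call (log2 fold change 0.16 ± 0.16, adjusted p = 0.437).

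The promoter of Stfa3 is shown because the members of the cluster moved together: the 250 bases before its start, RefSeq sequence in GRCm38.p6, chr16:36455393-36455642, - strand. It held neither of the interferon response elements searched for below. The same windows of Stfa1, Stfa2 and Stfa3 were 80.8% to 84.4% identical to each other.
Stfa3: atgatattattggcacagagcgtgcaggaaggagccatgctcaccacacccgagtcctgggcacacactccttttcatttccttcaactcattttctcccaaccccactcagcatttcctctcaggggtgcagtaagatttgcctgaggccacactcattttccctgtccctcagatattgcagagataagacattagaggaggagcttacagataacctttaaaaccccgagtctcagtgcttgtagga

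**Figure D3:**
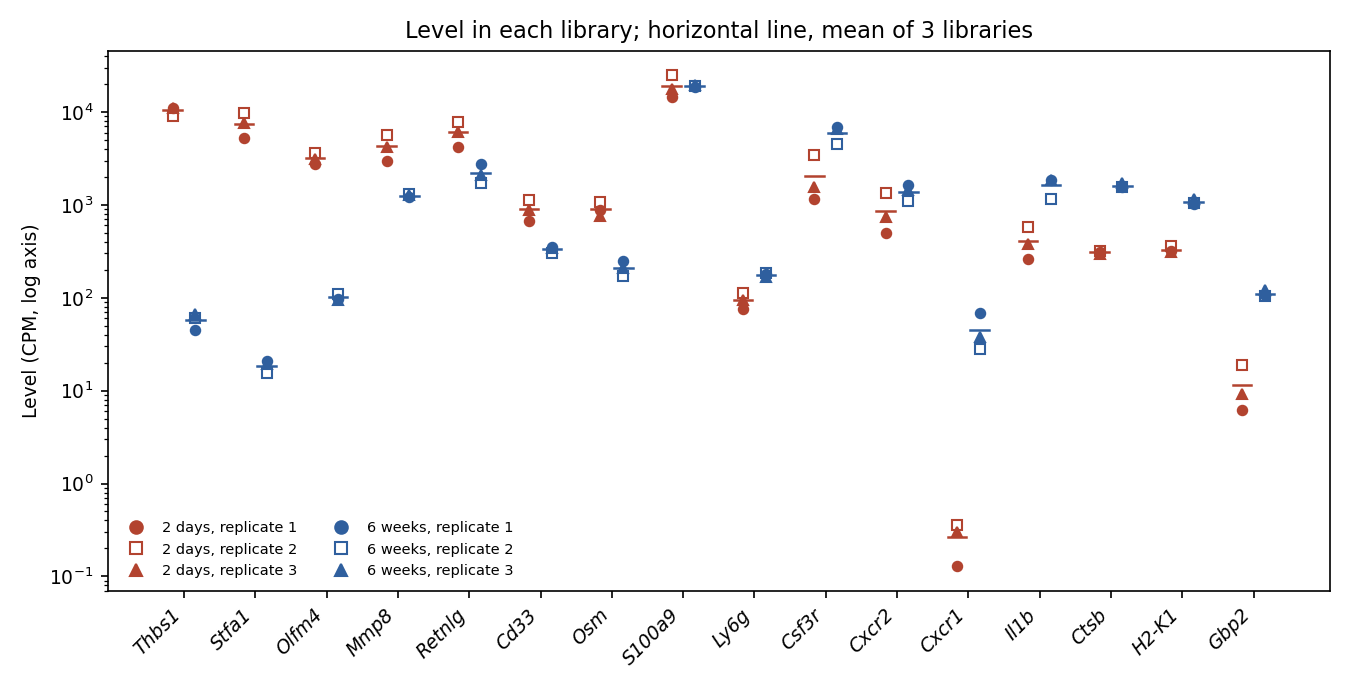
Level in each library (CPM, log axis) of 16 genes named in the text, red for 2 days and blue for 6 weeks. The symbols mark the replicate (open squares for replicate 2) and the horizontal lines the mean of the 3 libraries. Thbs1 and Stfa1 are the most widely separated of them, S100a9 overlaps, and replicate 2 of 2 days is the 2-day library nearest to 6 weeks for Csf3r and Cxcr2 and the farthest from it for Mmp8 and Retnlg.

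Granule genes went both ways within each granule class, and their counts stand against 20.7% higher and 19.7% lower of all tested genes. Olfm4, a secondary granule glycoprotein found in a subset of neutrophils, was at 2770, 3601 and 3131 CPM at 2 days and 97.2, 111 and 95.4 CPM at 6 weeks (log2 fold change 4.97 ± 0.19, adjusted p = 4.59e-09). Mmp8, the neutrophil collagenase, was at 3000, 5623 and 4222 CPM at 2 days and 1213, 1295 and 1266 CPM at 6 weeks (log2 fold change 1.77 ± 0.22, adjusted p = 5.21e-05), and Retnlg, a resistin-like protein of neutrophils, at 4159, 7793 and 6128 CPM at 2 days and 2752, 1712 and 2088 CPM at 6 weeks (log2 fold change 1.46 ± 0.27, adjusted p = 0.000942). In each of these the 2-day libraries lay above all libraries of 6 weeks, while Chil3 (-1.17), a chitinase-like protein, Camp (-0.92), the cathelicidin, and Cybb (-1.04), the catalytic oxidase subunit, were lower. Among secondary granule genes the count was 4 higher and 5 lower of 17 tested, median -0.17 on the log2 scale. Of the 4 higher genes, 2 were Olfm4 and Mmp8. The number of higher genes was 2 without 2-day replicate 2 or 3, 6-week replicate 1 or 3, 7-day replicate 1 or 3 or 14-day replicate 2.

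Primary granule genes gave 5 higher and 5 lower of 14 tested, median 0.18. Ctsg, a serine protease made at the promyelocyte stage, was at 37.6, 18.3 and 32.1 CPM at 2 days and 2.01, 3.68 and 2.87 CPM at 6 weeks (log2 fold change 3.36 ± 0.31, adjusted p = 5.25e-06). Mpo, the enzyme that makes hypochlorous acid, was at 279, 64.4 and 167 CPM at 2 days and 12.3, 37.9 and 17.4 CPM at 6 weeks (log2 fold change 2.92 ± 0.50, adjusted p = 0.000657, and 3.51 without 6-week replicate 2). Their 2-day libraries were all above those of 6 weeks, as were those of Cst7 (1.77), which encodes a cystatin. Ctsc, the protease that activates the granule serine proteases, was at 65.9, 75 and 57.8 CPM at 2 days and 179, 184 and 174 CPM at 6 weeks. It was lower (log2 fold change -1.44 ± 0.17, adjusted p = 3.41e-05), as were Fcnb (-1.02), a ficolin, and Lyz1 (-1.02), a lysozyme. On this list 3 genes were higher when 2-day replicate 3, 6-week replicate 1 or 6-week replicate 3 was omitted, and 3 lower when 2-day replicate 3 or 6-week replicate 2 was. Summed markers of neutrophil precursors were 848, 669 and 631 CPM at 2 days and 348, 549 and 416 CPM at 6 weeks, without overlap, with 5 higher and 1 lower of 11 tested. The sum includes Cebpe, a factor of terminal maturation that overlapped between the ages and was its largest member in 2-day replicate 2. It also includes Kit and Cd34, which are mast cell or progenitor genes too. The separation of the sums therefore does not rest on precursor genes alone, and the part of precursors in the primary granule result was not tested.

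Gelatinase granule and secretory vesicle genes gave 4 higher and 1 lower of 12 tested, median 0.16. Cd14, the lipopolysaccharide co-receptor, was at 500, 468 and 539 CPM at 2 days and 280, 176 and 168 CPM at 6 weeks, higher at 2 days in all libraries (log2 fold change 1.27 ± 0.25, adjusted p = 0.00167). Mmp9, the gelatinase itself, was at 4485, 6981 and 4926 CPM at 2 days and 6319, 5728 and 5652 CPM at 6 weeks, with overlapping ranges and no call (log2 fold change -0.11 ± 0.21, adjusted p = 0.703). The higher count was 2 without 2-day replicate 2 or 6-week replicate 2 or 3. The lower count was 4 without 2-day replicate 2 and 0 without any other of the 6 libraries. Of the NADPH oxidase genes 0 were higher and 2 of 9 lower, a share of lower genes near the 19.7% of all tested genes. The lower ones were Cybb and Hvcn1, the proton channel that balances charge during the oxidative burst. Hvcn1 was at 72.3, 56.2 and 56.7 CPM at 2 days and 165, 235 and 202 CPM at 6 weeks (log2 fold change -1.70 ± 0.15, adjusted p = 3.11e-06). The cytosolic subunit gene Ncf1 (-0.01) did not pass the test. The number of lower oxidase genes was 6 without 2-day replicate 2.

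The receptors of the main growth factors of neutrophils and macrophages, G-CSF and M-CSF, were lower at 2 days, and some receptors of the interleukin-1 family were higher. Csf3r, the G-CSF receptor on which neutrophil production depends, was at 1152, 3440 and 1568 CPM at 2 days and 6812, 4537 and 6572 CPM at 6 weeks. The ranges did not overlap although replicate 2 stood close to the 6-week libraries (log2 fold change -1.54 ± 0.36, adjusted p = 0.00444, and -2.13 without that library). Csf1r, the receptor of the macrophage growth factor, was at 158, 337 and 157 CPM at 2 days and 1130, 1145 and 1252 CPM at 6 weeks (log2 fold change -2.44 ± 0.25, adjusted p = 1.33e-05). Csf1r is at home in macrophages and monocytes. The summed markers of macrophages at large, which include Csf1r itself, were 541, 817 and 503 CPM at 2 days and 3169, 3233 and 3438 CPM at 6 weeks. The part of these cells was not tested. Il1r2, a decoy receptor that binds interleukin-1 without signalling, was at 571, 731 and 829 CPM at 2 days and 245, 172 and 184 CPM at 6 weeks, higher in all 2-day libraries (log2 fold change 1.83 ± 0.23, adjusted p = 5.47e-05). Il18rap, a subunit of the interleukin-18 receptor, was at 493, 638 and 610 CPM at 2 days and 296, 257 and 267 CPM at 6 weeks (log2 fold change 1.09 ± 0.15, adjusted p = 0.00011). Over the list of growth factor and interleukin receptors, 5 of 30 were higher and 11 lower, median -0.18. The lower ones included Il21r (-1.88), Il6st (-1.81), the shared subunit for interleukin-6 type cytokines, Il2rg (-1.30) and Tnfrsf1b (-1.02). The subunit for GM-CSF, Csf2rb (-0.12), and the interleukin-17 receptor Il17ra (0.23) did not pass. The higher Il1rl1 (5.23) and Kit (2.18) are also mast cell or progenitor genes.

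Chemoattractant receptors gave 4 higher and 9 lower of 28 tested, median -0.11. Together 46.4% were called, against 40.4% of all tested genes. Cxcr1, a receptor for interleukin-8 type chemokines, was nearly absent at 2 days, at 0.128, 0.362 and 0.301 CPM at 2 days and 67.8, 28 and 37.8 CPM at 6 weeks (log2 fold change -7.42 ± 0.46, adjusted p = 2.89e-07). Cxcr2, its relative that calls neutrophils out of the marrow, was at 492, 1335 and 747 CPM at 2 days and 1618, 1112 and 1449 CPM at 6 weeks. Replicate 2 of 2 days lay within the 6-week range, and the difference did not pass (log2 fold change -0.70 ± 0.29, adjusted p = 0.0744). It passed without that library (-1.16), with DESeq2 (-0.71), with limma-voom (-0.79), with library totals as the scaling (-0.74) and without the filter (-0.74). Cxcr4, which holds neutrophils in the marrow, was at 298, 664 and 390 CPM at 2 days and 589, 581 and 760 CPM at 6 weeks, and the ages overlapped (log2 fold change -0.51 ± 0.24, adjusted p = 0.108), with a call without 2-day replicate 2 (-0.9). Ptafr, the receptor for platelet-activating factor, was at 61.3, 188 and 107 CPM at 2 days and 318, 275 and 340 CPM at 6 weeks, lower in all 2-day libraries (log2 fold change -1.39 ± 0.32, adjusted p = 0.00464). C3ar1, the receptor of the complement fragment C3a, was at 4.85, 5.07 and 6.49 CPM at 2 days and 0.752, 0.953 and 0.875 CPM at 6 weeks, higher at 2 days (log2 fold change 2.66 ± 0.21, adjusted p = 1.63e-06). The number of higher receptors was 1 without 6-week replicate 3 and 2 without 2-day replicate 2, 6-week replicate 1 or 2, 14-day replicate 3 or any 7-day replicate.

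Most antiviral effectors and interferon-induced GTPases were lower at 2 days. The Ifi200 family went both ways, and most Schlafen genes were not called. Of 43 core antiviral effectors 0 were higher and 29 lower (median -1.09), and of 15 interferon-induced GTPases 0 were higher and 13 lower (median -1.89), against 20.7% higher and 19.7% lower of all tested genes. Isg15, a ubiquitin-like modifier, was at 9.37, 19.4 and 11.7 CPM at 2 days and 54.5, 45.6 and 74.6 CPM at 6 weeks (log2 fold change -2.11 ± 0.28, adjusted p = 9.06e-05). Oas1g, a sensor of double-stranded RNA that starts RNA decay, was at 9.02, 10.5 and 7.4 CPM at 2 days and 40.8, 48.8 and 46.7 CPM at 6 weeks (log2 fold change -2.34 ± 0.24, adjusted p = 1.36e-05). Both were lower in all 2-day libraries. Oasl2, a relative of the OAS enzymes, was at 50.7, 170 and 76.4 CPM at 2 days and 577, 474 and 628 CPM at 6 weeks (log2 fold change -2.50 ± 0.40, adjusted p = 0.000363, and -3.13 without 2-day replicate 2), and Ifitm1, which blocks virus entry, at 139, 340 and 190 CPM at 2 days and 1116, 666 and 618 CPM at 6 weeks (log2 fold change -1.84 ± 0.33, adjusted p = 0.000902). Ifit1, Ifit2 and Ifit3, which bind foreign RNA, changed by log2 -1.81, -2.12 and -1.95. The 14 core effectors that did not pass included Oas2 (-0.14), Eif2ak2 (0.04), Bst2 (-0.21) and Adar (-0.12). Another was Ifitm6 (0.38), called as higher without 2-day replicate 2 (0.45) or 6-week replicate 2 (0.53).

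The GTPases of the guanylate-binding and IRG families attack the vacuoles of intracellular microbes. Gbp2b was at 1.15, 1.22 and 0.931 CPM at 2 days and 15.4, 16.8 and 19 CPM at 6 weeks (log2 fold change -3.95 ± 0.24, adjusted p = 2.04e-07). Gbp2 was at 6.18, 19 and 9.12 CPM at 2 days and 106, 104 and 122 CPM at 6 weeks (log2 fold change -3.28 ± 0.32, adjusted p = 8.27e-06), and Igtp, the IRG family member also named Irgm3, at 17.4, 33.1 and 23 CPM at 2 days and 53.6, 49.8 and 63.8 CPM at 6 weeks (log2 fold change -1.19 ± 0.19, adjusted p = 0.000328). In all 3 the 2-day libraries lay below those of 6 weeks. Iigp1 (-3.79), Gbp8 (-3.75), Tgtp2 (-3.28), Gbp3 (-2.76) and Irgm2 (-1.89) were lower as well, and Tgtp1 and Gvin1, with log2 fold changes of -1.72 and -0.66, were the members that did not pass. Tgtp1 passed without 14-day replicate 1 or 3 (-1.72 in each case), and Gvin1 without 2-day replicate 2 (-1.01), 14-day replicate 2 (-0.69) or 7-day replicate 1 or 2 (-0.69 and -0.66). These genes are multigene families with close copies, so reads may be shared between members.

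The Ifi200 genes, which encode DNA-binding proteins of the interferon response, went both ways, with 2 higher and 4 lower of 12. Ifi202b had 0 counts in all 3 libraries of 2 days and was at 15, 13.2 and 16.6 CPM at 6 weeks, at least 528-fold lower at 2 days. Its mean was 0.00882 CPM at 7 days and 0 CPM at 14 days. Ifi203 was at 14.9, 13.6 and 11.9 CPM at 2 days and 30.9, 34.1 and 33.9 CPM at 6 weeks (log2 fold change -1.29 ± 0.20, adjusted p = 0.000355). Ifi208 went the other way, at 7.71, 18.9 and 11.8 CPM at 2 days and 0.975, 1.09 and 1.01 CPM at 6 weeks (log2 fold change 3.63 ± 0.29, adjusted p = 1.84e-06). The other higher member, Ifi204 (1.16), lost its call when 2-day replicate 2 (0.57) or replicate 1 (1.2) or 2 (1.0) of 6 weeks was omitted, which left 1 higher member. Schlafen genes, which regulate T cell quiescence and transfer RNA, gave 0 higher and 2 lower of 7: Slfn8 (-1.93) and Slfn5 (-1.33). Slfn4 was at 1511, 2533 and 1852 CPM at 2 days and 1830, 1789 and 1914 CPM at 6 weeks, with overlapping libraries (log2 fold change 0.09 ± 0.21, adjusted p = 0.76), and 4 Schlafen genes were lower without 2-day replicate 2.

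Promoters of the interferon and class I lists were read for 2 elements, because most core effectors and GTPases were lower. Ifi200 genes went both ways, and of 7 Schlafen genes 0 were higher and 2 lower. The elements were the interferon-stimulated response element, searched as GAAA, any 2 bases and GAAA again, and the gamma-activated sequence, searched as TTCNNNGAA. Both strands of the 250 bases before the gene start were searched (RefSeq, GRCm38.p6). Overlapping matches were counted separately. The first was in 3.46% of 27025 genes with a promoter and the second in 8.13%. Of 58 core effectors and GTPases tested, 42 had a promoter in the table. The first element was in 13 of 32 core effectors, in 10 of the 20 lower ones and 3 of the 12 others, and in 9 of 10 GTPases. It was in 8 of 11 Ifi200 genes, of which 6 were among the 7 that were not lower. Of class I heavy chain genes 3 of 10 held it, and of peptide supply genes 0 of 11. It was in 3 of 7 Schlafen genes and 1 of 7 interferon regulatory factors. The second was in 7 of 32 core effectors, in 3 of the 20 lower ones and 4 of the 12 others, in 5 of 10 GTPases, and in 1 each of the Ifi200, class I heavy chain and peptide supply genes. Of the regulatory factors 3 of 7 held the second element, and of the Schlafen genes 0 of 7. The windows below are those of Isg15, chr4:156200819-156201068, - strand; Oas1g, chr5:120887614-120887863, - strand; Gbp2b, chr3:142594597-142594846, + strand; Igtp, chr11:58199306-58199555, + strand; and Ifi208, chr1:173673415-173673664, + strand. They are shown because they carry the element in 3 families, in 4 genes that were lower and 1, Ifi208, that was higher. Capitals mark matches of the first element. Isg15 has 3 matches and Oas1g 2, in each case overlapping, starting 78, 72 and 66 bases and 18 and 12 bases before the gene, and the match of Gbp2b, 137 bases before it, is on the reverse strand.
Isg15: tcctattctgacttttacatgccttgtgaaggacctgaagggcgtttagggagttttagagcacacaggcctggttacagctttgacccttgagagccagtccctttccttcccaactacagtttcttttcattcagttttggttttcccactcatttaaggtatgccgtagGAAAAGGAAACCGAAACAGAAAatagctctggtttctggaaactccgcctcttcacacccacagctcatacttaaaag
Oas1g: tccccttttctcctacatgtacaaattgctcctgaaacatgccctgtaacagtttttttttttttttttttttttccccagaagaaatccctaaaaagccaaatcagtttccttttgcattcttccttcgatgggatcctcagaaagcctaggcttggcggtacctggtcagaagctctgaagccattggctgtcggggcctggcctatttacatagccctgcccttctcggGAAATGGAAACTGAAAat
Gbp2b: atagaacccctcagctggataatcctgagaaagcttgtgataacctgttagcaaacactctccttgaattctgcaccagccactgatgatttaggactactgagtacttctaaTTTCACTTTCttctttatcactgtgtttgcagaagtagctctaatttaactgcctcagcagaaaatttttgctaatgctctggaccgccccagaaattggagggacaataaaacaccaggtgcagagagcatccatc
Igtp: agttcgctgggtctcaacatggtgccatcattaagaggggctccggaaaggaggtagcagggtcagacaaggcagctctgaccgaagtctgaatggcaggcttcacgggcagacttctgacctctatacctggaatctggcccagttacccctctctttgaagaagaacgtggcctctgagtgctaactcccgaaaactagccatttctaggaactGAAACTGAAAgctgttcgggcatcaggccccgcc
Ifi208: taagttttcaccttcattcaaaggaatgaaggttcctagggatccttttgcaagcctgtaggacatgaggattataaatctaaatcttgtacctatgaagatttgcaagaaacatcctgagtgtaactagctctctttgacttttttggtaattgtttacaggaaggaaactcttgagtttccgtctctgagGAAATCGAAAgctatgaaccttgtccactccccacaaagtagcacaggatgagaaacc

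Some of the interferon receptors and signal transducers were lower as well. Stat2, a transducer of type I signals, was at 39.9, 40.5 and 45.9 CPM at 2 days and 70.6, 78.9 and 83.3 CPM at 6 weeks (log2 fold change -0.88 ± 0.10, adjusted p = 3.28e-05), below 6 weeks in all 2-day libraries. The receptor subunit gene Ifngr1 was lower (-0.51 ± 0.12). The kinase genes Jak1 (-0.36), Jak2 (0.23) and Tyk2 (-0.02) did not pass, and without 2-day replicate 2 Jak1 (-0.6) and Tyk2 (-0.21) did. In all, 0 of 13 were higher and 5 lower, a number that was 8 with library totals and 9 without 2-day replicate 2. Of 8 interferon regulatory factors 4 were lower: Irf8 (-1.22), the factor of monocyte and dendritic cell fate, Irf7 (-1.09), Irf5 (-1.01) and Irf1 (-0.79). Irf1 was at 113, 207 and 154 CPM at 2 days and 329, 209 and 283 CPM at 6 weeks and lost its call without 6-week replicate 1 (-0.64).

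**Figure D4:**
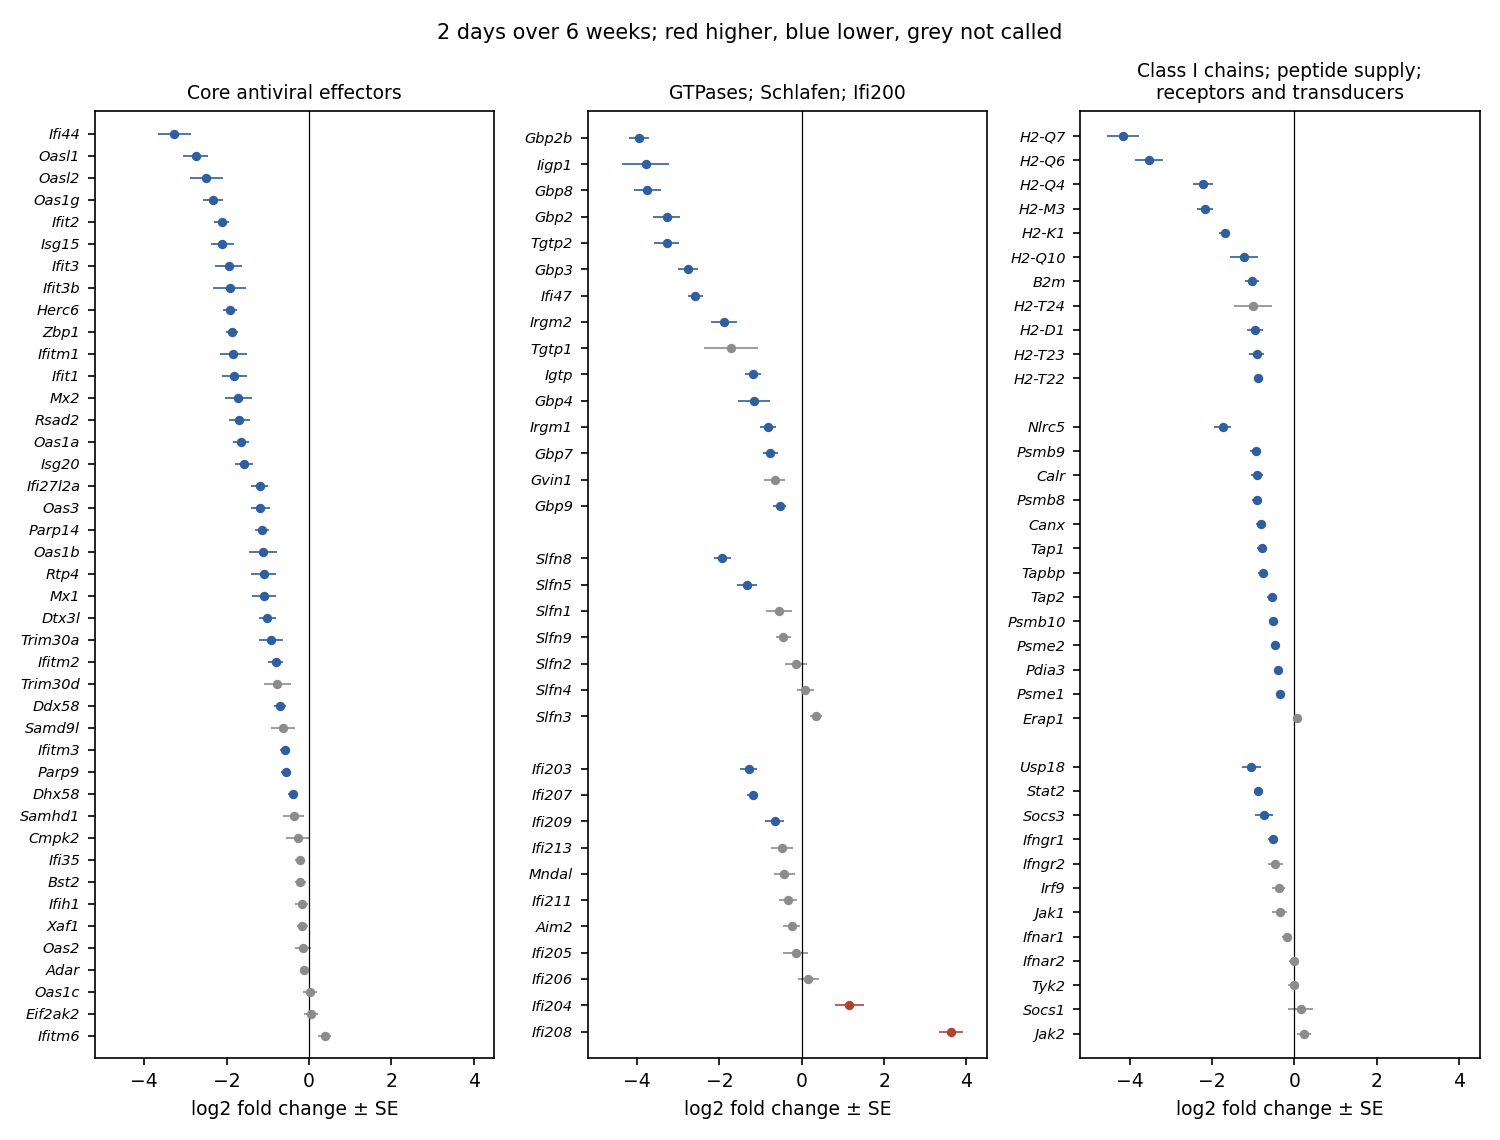
Log2 fold change, 2 days over 6 weeks, with its SE (bars) for the tested members of 7 lists: core antiviral effectors on the left, GTPases, Schlafen and Ifi200 genes in the middle, class I chains, peptide supply genes and interferon receptors and transducers on the right. Blue members were lower, red higher and grey not called, and 3 members are not drawn, among them Ifi202b, with 0 counts at 2 days. Ifi204 and Ifi208 are the red points.

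Both arms of antigen presentation were lower at 2 days. Of 11 class I heavy chain and B2m genes 0 were higher and 10 lower, and of 13 genes that supply their peptides 0 and 12. B2m, the light chain of all class I molecules, was at 443, 725 and 564 CPM at 2 days and 1170, 1122 and 1242 CPM at 6 weeks (log2 fold change -1.03 ± 0.17, adjusted p = 0.000421). H2-D1, a classical heavy chain, was at 1736, 2642 and 2010 CPM at 2 days and 4447, 3515 and 4481 CPM at 6 weeks (log2 fold change -0.96 ± 0.19, adjusted p = 0.00169), and the libraries of the 2 ages did not overlap for either. The non-classical H2-Q7 (-4.16), H2-Q6 (-3.53), H2-Q4 (-2.22) and H2-M3 (-2.17) were lower by more, with H2-Q7 at 8.1, 2.4 and 4.9 CPM at 2 days and 86.7, 102 and 89.6 CPM at 6 weeks. These chains are near-identical and differ between mouse strains, so reads may be split between them and mapping may depend on strain. Tap1, which pumps peptides into the endoplasmic reticulum, was at 146, 129 and 149 CPM at 2 days and 236, 232 and 266 CPM at 6 weeks (log2 fold change -0.79 ± 0.11, adjusted p = 9.88e-05), and the immunoproteasome genes Psmb8 (-0.90), Psmb9 (-0.94) and Psmb10 (-0.51) were lower.

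All 10 class II genes were lower, with a median of -2.45. H2-Ab1, a class II beta chain, was at 88.8, 41.4 and 66 CPM at 2 days and 687, 531 and 526 CPM at 6 weeks (log2 fold change -3.15 ± 0.28, adjusted p = 3.56e-06). Ciita, the master activator of class II transcription, was at 11.4, 5.4 and 6.9 CPM at 2 days and 70.7, 61.3 and 58.3 CPM at 6 weeks (adjusted p = 1.06e-05), and Cd74, the invariant chain, at 362, 203 and 282 CPM at 2 days and 1678, 1420 and 1422 CPM at 6 weeks (log2 fold change -2.42 ± 0.25, adjusted p = 1.27e-05). The 6-week libraries lay above every 2-day library in each. Class II genes are at home in B cells, dendritic cells and macrophages. Summed markers of B cells were 944, 662 and 727 CPM at 2 days and 1408, 1381 and 1485 CPM at 6 weeks, and those of dendritic cells 101, 62.7 and 87 CPM at 2 days and 214, 183 and 177 CPM at 6 weeks. Each was higher at 6 weeks in all libraries, and their part in the class I, class II and interferon results was not tested.

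Sensors of microbes were lower on balance, with exceptions at particular steps. Toll-like receptors and adaptors gave 1 higher and 10 lower of 21 tested, median -0.58. Tlr9, which detects bacterial DNA, was at 10, 6.16 and 6.99 CPM at 2 days and 24.4, 28 and 24.7 CPM at 6 weeks (log2 fold change -1.73 ± 0.23, adjusted p = 9.88e-05), and its chaperone Unc93b1 at 277, 400 and 269 CPM at 2 days and 622, 520 and 625 CPM at 6 weeks (log2 fold change -0.90 ± 0.15, adjusted p = 0.000582). Each was lower in all 2-day libraries, as were Tlr12 (-2.61), Tlr11 (-2.10), Tlr3 (-1.40), Tlr6 (-1.21) and Tlr1 (-1.17). The receptors for lipopolysaccharide and lipoproteins, Tlr4 (-0.46) and Tlr2 (0.46), did not pass, and Cd14 was the higher member. Tlr4 passed without 2-day replicate 2 (-1.18), and 2 members were higher without 2-day replicate 1. Myd88, the adaptor of most of these receptors, was at 210, 279 and 258 CPM at 2 days and 470, 338 and 429 CPM at 6 weeks (log2 fold change -0.73 ± 0.17, adjusted p = 0.0048).

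Cytosolic sensors and inflammasome genes gave 5 higher and 10 lower of 20 tested, median -0.78. Mefv, which encodes the inflammasome sensor pyrin, was at 13.6, 21.5 and 15.9 CPM at 2 days and 124, 101 and 113 CPM at 6 weeks (log2 fold change -2.74 ± 0.22, adjusted p = 1.5e-06). Nod2, a sensor of bacterial cell wall, was at 5.01, 16.1 and 7.62 CPM at 2 days and 40.8, 23 and 39.5 CPM at 6 weeks (log2 fold change -1.86 ± 0.35, adjusted p = 0.0012), and Il1b, the cytokine that inflammasomes mature, at 260, 577 and 379 CPM at 2 days and 1840, 1169 and 1871 CPM at 6 weeks (log2 fold change -2.01 ± 0.32, adjusted p = 0.000379). Those 3 lay lower in every 2-day library. Naip6 and Naip5, receptors of the NLRC4 inflammasome, were higher (1.47 ± 0.15 and 0.69 ± 0.14), with Naip6 at 62.7, 76.1 and 65.3 CPM at 2 days and 22.2, 28.1 and 23.1 CPM at 6 weeks, while Nlrc4 itself was lower (-1.63 ± 0.24). Pycard, the adaptor ASC, was at 32.8, 55.7 and 37.8 CPM at 2 days and 22, 27.2 and 24.1 CPM at 6 weeks, higher at 2 days (log2 fold change 0.78 ± 0.17, adjusted p = 0.00248). Nlrp3 (-0.55) and Casp1 (-0.51) did not pass, but did without 2-day replicate 2 (-0.76 and -0.78). The number of higher members was 3 with the 6 libraries alone or without 6-week replicate 1 or 2.

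C-type lectins of myeloid cells, which bind sugars of microbes and dead cells, gave 1 higher and 13 lower of 18 tested, median -1.28. Clec7a, the beta-glucan receptor dectin-1, was at 77.5, 245 and 138 CPM at 2 days and 670, 444 and 701 CPM at 6 weeks (log2 fold change -1.98 ± 0.41, adjusted p = 0.00216). Clec4e, the receptor Mincle, was at 88, 128 and 123 CPM at 2 days and 329, 223 and 251 CPM at 6 weeks (log2 fold change -1.24 ± 0.26, adjusted p = 0.00242), and Clec4n, dectin-2, at 16.3, 40.3 and 17.3 CPM at 2 days and 68.6, 57.9 and 83.4 CPM at 6 weeks (log2 fold change -1.51 ± 0.28, adjusted p = 0.00119). All 3 were lower in each 2-day library. Clec4d was at 144, 652 and 284 CPM at 2 days and 420, 216 and 318 CPM at 6 weeks and Clec5a at 95, 205 and 132 CPM at 2 days and 131, 150 and 148 CPM at 6 weeks, and neither passed (0.18 ± 0.41 and 0.01 ± 0.21). Clec4d turned to -0.57 without 2-day replicate 2, again with no call. The higher member was Clec10a (1.51), and 2 were higher without 2-day replicate 1. Mrc1, the macrophage mannose receptor, was among the lower ones (-3.45 ± 0.36).

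Fc receptors and paired receptors gave 5 higher and 12 lower of 32 tested, median -0.43, with a count of 21 lower without 2-day replicate 2. Together 53.1% were called, against 40.4% of all tested genes. Trem1, which amplifies neutrophil activation, was at 969, 1097 and 1048 CPM at 2 days and 383, 256 and 302 CPM at 6 weeks (log2 fold change 1.73 ± 0.21, adjusted p = 5.07e-05). Cd33, an inhibitory sialic acid receptor, was at 677, 1141 and 873 CPM at 2 days and 350, 304 and 343 CPM at 6 weeks (log2 fold change 1.43 ± 0.19, adjusted p = 8.32e-05), and Cd300lf, an inhibitory lipid receptor, at 1328, 1691 and 1496 CPM at 2 days and 979, 721 and 842 CPM at 6 weeks (log2 fold change 0.83 ± 0.16, adjusted p = 0.0012). All 3 were above the 6-week libraries in every 2-day library. The signalling chains Fcer1g (-0.01) and Tyrobp (-0.16) and the inhibitory Sirpa (-0.34) and Pirb did not pass, Pirb being at 822, 1391 and 901 CPM at 2 days and 1103, 976 and 1032 CPM at 6 weeks. Tyrobp (-0.53) and Sirpa (-0.66) passed as lower without 2-day replicate 2. Lower members included the immunoglobulin G receptors Fcgr1 (-1.61) and Fcgr2b (-1.57), and Sirpb1c (-1.96), Sirpb1a (-2.70) and Treml4 (-2.16). Sirpb1c and Sirpb1a were at -2.9 and -3.44 without 2-day replicate 2. Cd200r3 (6.57), another higher member, is a basophil and mast cell gene.

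Adhesion genes gave 3 higher and 13 lower of 28 tested, median -0.56. Together 57.1% were called, against 40.4% of all tested genes. Selplg, the ligand with which neutrophils roll on selectins, was at 627, 1506 and 771 CPM at 2 days and 2630, 1749 and 2264 CPM at 6 weeks (log2 fold change -1.19 ± 0.29, adjusted p = 0.00614). Icam1 was at 16.4, 22.3 and 12.5 CPM at 2 days and 75.3, 72.7 and 75.4 CPM at 6 weeks (log2 fold change -2.13 ± 0.19, adjusted p = 4.36e-06), and Itgax, the CD11c chain, at 34, 87.1 and 37.5 CPM at 2 days and 180, 150 and 171 CPM at 6 weeks (log2 fold change -1.66 ± 0.28, adjusted p = 0.00051). The 2-day libraries lay below the 6-week libraries in all 3. Itgam, the CD11b chain of the main neutrophil integrin, was at 2293, 3090 and 2479 CPM at 2 days and 2123, 2452 and 2311 CPM at 6 weeks, with overlapping libraries, and did not pass (log2 fold change 0.19 ± 0.17, adjusted p = 0.403). Itga4, Itga5 and Itga9 were lower (-0.71, -1.42 and -1.78). The higher members included Itga2b (2.87), a platelet integrin, and Itga6 (0.79). Of the 10 tested genes of the Ly6 family, Ly6g among them, 0 were higher and 7 lower, led in level change by Ly6e at 276, 226 and 248 CPM at 2 days and 910, 855 and 996 CPM at 6 weeks (log2 fold change -1.88 ± 0.14, adjusted p = 1.33e-06). Ly6c2, a monocyte and neutrophil surface gene, was at 315, 470 and 447 CPM at 2 days and 378, 450 and 390 CPM at 6 weeks and overlapped (log2 fold change 0.02 ± 0.16, adjusted p = 0.947).

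Cytokines and chemokines went both ways, 13 higher and 15 lower of 40 tested, median -0.23. Osm, oncostatin M, an interleukin-6 type cytokine, was at 873, 1076 and 760 CPM at 2 days and 248, 171 and 207 CPM at 6 weeks (log2 fold change 2.11 ± 0.23, adjusted p = 1.92e-05). Ccl3, a chemokine that draws monocytes, was at 49.5, 46.5 and 58.2 CPM at 2 days and 10.5, 9.03 and 10.9 CPM at 6 weeks (log2 fold change 2.34 ± 0.52, adjusted p = 0.0034), and Lif, another cytokine of the interleukin-6 type, at 12.7, 12.6 and 14.8 CPM at 2 days and 0.279, 0.397 and 0.437 CPM at 6 weeks (log2 fold change 5.16 ± 0.36, adjusted p = 6.28e-07). Each was higher in all 2-day libraries. Cxcl3 and Ccl2, further chemokines, were higher as well (3.08 and 3.41). On the other side stood Cxcl9 (-5.35), which interferon induces, Ccl5 (-2.41), Il18 (-1.85) and Il1a (-1.32), with Cxcl9 at -6.07 without 2-day replicate 3. Il1rn, the antagonist of interleukin-1, was at 91.9, 245 and 130 CPM at 2 days and 221, 156 and 217 CPM at 6 weeks, with overlapping libraries and no call (log2 fold change -0.35 ± 0.29, adjusted p = 0.37), and was called without 2-day replicate 2 (-0.83). Without 2-day replicate 3 the number of lower members was 9. Some higher members, Il4 (3.61), Il13 (6.12) and Il6 (6.06), are products of basophils and mast cells. Each is itself a member of the basophil marker list, so that list is no separate measure of these cells. Mast cell markers, which do not include these genes, were higher at 2 days. The part of both cell types was not tested. Values were 5.45 for Il4 without 6-week replicate 2, 8.79 for Il13 without 6-week replicate 1 and 6.66 for Il6 without 6-week replicate 3.

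Genes induced within minutes of a stimulus were higher in many cases. The immediate early list gave 11 higher and 1 lower of 22 tested, median 0.66. Fosb was at 1044, 1851 and 1182 CPM at 2 days and 108, 89 and 109 CPM at 6 weeks (log2 fold change 3.74 ± 0.23, adjusted p = 2.48e-07), Egr1 at 2811, 3310 and 2503 CPM at 2 days and 687, 821 and 1302 CPM at 6 weeks (log2 fold change 1.62 ± 0.23, adjusted p = 0.000148) and Nr4a1 at 703, 712 and 506 CPM at 2 days and 207, 184 and 208 CPM at 6 weeks (log2 fold change 1.68 ± 0.21, adjusted p = 7.19e-05). These transcription factors were above the 6-week level in every 2-day library. Fosl1 was at 57.9, 18.9 and 63.3 CPM at 2 days and 0.446, 0.53 and 0.41 CPM at 6 weeks (log2 fold change 6.65 ± 0.80, adjusted p = 4.51e-05), and Egr2 (2.44), Egr3 (2.44) and Fos (1.03) were higher. Junb, Zfp36 and Dusp1 did not pass (0.20, 0.39 and 0.54), and Ier5 (-0.92) was lower. Without 14-day replicate 1, 3 members were lower, and without 14-day replicate 3, 2.

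Genes of the NF-kB system went both ways. Relb, a subunit of the alternative pathway, was at 22.8, 21.2 and 21 CPM at 2 days and 84.9, 64.5 and 67.1 CPM at 6 weeks (log2 fold change -1.73 ± 0.12, adjusted p = 4.86e-07) and Nfkb2, its partner, at 52.1, 61.8 and 57 CPM at 2 days and 154, 139 and 139 CPM at 6 weeks (log2 fold change -1.34 ± 0.10, adjusted p = 1.04e-06), and both lay below 6 weeks in all 2-day libraries. The inhibitor gene Nfkbie (-1.68) was lower too. Chuk, the kinase of that pathway, was at 41.5, 40.7 and 50.4 CPM at 2 days and 42.7, 37.9 and 36.5 CPM at 6 weeks and did not pass (log2 fold change 0.18 ± 0.12, adjusted p = 0.248). The canonical subunit gene Rela (0.03) and the inhibitors Nfkbia (0.09) and Nfkbib (-0.10) did not pass. Nfkbiz, an atypical inhibitor that drives secondary response genes, was at 399, 381 and 428 CPM at 2 days and 196, 150 and 173 CPM at 6 weeks, higher at 2 days (log2 fold change 1.22 ± 0.24, adjusted p = 0.00165). The list had 2 higher and 5 lower of 17 tested, median 0.03, and its called share of 41.2% was near the 40.4% of all tested genes. The higher count was 4 without 14-day replicate 1 and 1 without 2-day replicate 3, any 6-week replicate, 14-day replicate 2 or 3 or 7-day replicate 3.

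Genes held to carry the suppressive activity of these cells went both ways, 6 higher and 6 lower of 27 tested, median 0.09, shares close to those over all genes. Beside Thbs1, the higher members were Nt5e, the ectoenzyme CD73 that makes adenosine, at 49.2, 70.7 and 54 CPM at 2 days and 10.9, 18.2 and 12.8 CPM at 6 weeks (log2 fold change 2.05 ± 0.22, adjusted p = 1.65e-05), Lgals1, galectin-1, at 96.7, 70.2 and 95.7 CPM at 2 days and 25, 25.9 and 21.7 CPM at 6 weeks (log2 fold change 1.85 ± 0.22, adjusted p = 4.28e-05), Ptges (0.93), Slc27a2 (1.46) and Arg1 (3.86). For Nt5e and Lgals1 the ages did not overlap. Ptges, the prostaglandin E synthase, was at 20.2, 21.1 and 19 CPM at 2 days and 7.8, 12.8 and 11 CPM at 6 weeks (log2 fold change 0.93 ± 0.17, adjusted p = 0.00106). Arg1, at 2.32, 4.58 and 2.71 CPM at 2 days and 0.111, 0.424 and 0.109 CPM at 6 weeks, was low in every library (log2 fold change 3.86 ± 0.55, adjusted p = 0.000155, and 4.81 without 6-week replicate 2). Slc27a2, a fatty acid transporter, lost its call without 2-day replicate 2 (0.88) or 6-week replicate 1 (1.47) or 2 (1.39).

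Of the lower suppressive members, Slc7a2, an arginine transporter, had the largest fall at a low level, at 1.2, 0.988 and 0.822 CPM at 2 days and 4.51, 4.26 and 4.45 CPM at 6 weeks (log2 fold change -2.13 ± 0.30, adjusted p = 0.000155). Cd274, the checkpoint ligand PD-L1, was at 17.3, 14.5 and 19.6 CPM at 2 days and 54.9, 52.7 and 64.7 CPM at 6 weeks (log2 fold change -1.74 ± 0.15, adjusted p = 3.69e-06). Entpd1, the ectoenzyme CD39 that acts before CD73, was at 113, 264 and 157 CPM at 2 days and 441, 347 and 408 CPM at 6 weeks (log2 fold change -1.16 ± 0.25, adjusted p = 0.00263). Tgfb1 was at 177, 235 and 154 CPM at 2 days and 304, 347 and 355 CPM at 6 weeks (log2 fold change -0.83 ± 0.15, adjusted p = 0.000983). Each was lower in all 2-day libraries, and CD39 and CD73 thus stood on opposite sides. Arg2 was at 31.2, 111 and 65.2 CPM at 2 days and 129, 86.7 and 114 CPM at 6 weeks (log2 fold change -0.67 ± 0.36, adjusted p = 0.155), Nos2 at 3.73, 3.29 and 5.23 CPM at 2 days and 2.93, 1.06 and 0.574 CPM at 6 weeks (log2 fold change 1.43 ± 0.55, adjusted p = 0.0554) and Ptgs2 at 92.1, 149 and 118 CPM at 2 days and 114, 84.5 and 171 CPM at 6 weeks (log2 fold change -0.04 ± 0.30, adjusted p = 0.926). None of these passed. Arg2 did without 2-day replicate 2 (-1.18) and so did Nos2 (1.57), which also passed without 6-week replicate 1 (2.31) or 7-day replicate 2 (1.43). Vsir, the checkpoint VISTA, was at 1193, 1969 and 1349 CPM at 2 days and 1361, 1336 and 1325 CPM at 6 weeks, also without a call (log2 fold change 0.17 ± 0.18, adjusted p = 0.483).

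Lipid mediator genes gave 4 higher and 5 lower of 21 tested, median -0.18. Together 42.9% were called, near the 40.4% of all tested genes. Lta4h, which makes leukotriene B4, was at 258, 230 and 235 CPM at 2 days and 391, 623 and 481 CPM at 6 weeks (log2 fold change -1.05 ± 0.15, adjusted p = 0.000197). Tbxas1, the thromboxane synthase, was at 6.08, 5.63 and 4.6 CPM at 2 days and 40.3, 44.3 and 43 CPM at 6 weeks (log2 fold change -2.97 ± 0.12, adjusted p = 8.8e-09), and Hpgd, which breaks prostaglandins down, at 4.52, 7.28 and 3.18 CPM at 2 days and 77.9, 81.1 and 89.9 CPM at 6 weeks (log2 fold change -4.06 ± 0.27, adjusted p = 3.94e-07). In these the 2-day libraries were all lower. Alox5, the first enzyme of leukotriene synthesis, was at 514, 674 and 546 CPM at 2 days and 445, 494 and 475 CPM at 6 weeks and did not pass (log2 fold change 0.29 ± 0.16, adjusted p = 0.154). Of the 4 higher members, Alox12 (1.80), a platelet lipoxygenase, kept its call under every alternative. Without 2-day replicate 2 there were 1 higher and 10 lower members, and without 6-week replicate 2 or 3, 2 higher members.

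Regulators of haematopoietic stem cells and of the fetal growth programme were higher. Stem and progenitor genes gave 13 higher and 4 lower of 21 tested, median 1.32. Gata2, a factor of stem, progenitor and mast cells, was at 171, 73.4 and 129 CPM at 2 days and 1.39, 1.91 and 0.875 CPM at 6 weeks (log2 fold change 6.48 ± 0.38, adjusted p = 1.83e-07). Cd34 was at 48.1, 17.9 and 37.5 CPM at 2 days and 0.39, 1.01 and 1.04 CPM at 6 weeks (log2 fold change 5.40 ± 0.42, adjusted p = 1.42e-06), and Lyl1, a stem cell factor, at 152, 297 and 153 CPM at 2 days and 87.2, 92.2 and 101 CPM at 6 weeks (log2 fold change 1.10 ± 0.21, adjusted p = 0.00151). The 2-day libraries were above 6 weeks throughout. Meis1 (1.74), Tal1 (1.69) and Angpt1 (2.56) were higher, and Flt3 (-1.37), Procr (-1.98) and Ly6a (-0.65) lower. Erythroid markers summed to 510, 158 and 381 CPM at 2 days and 161, 105 and 97.1 CPM at 6 weeks, and mast cell markers also contain Gata2 and Kit, so their part in this list was not tested.

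Fetal regulators gave 8 higher and 0 lower of 10 tested, median 2.32. Lin28b, which blocks the maturation of let-7, had 3.01, 1.35 and 2.27 CPM at 2 days and 0 counts at 6 weeks, at least 81.3-fold higher. Hmga2, a let-7 target, was at 7.3, 3.16 and 6.46 CPM at 2 days and 0.446, 0.768 and 0.929 CPM at 6 weeks (log2 fold change 2.98 ± 0.39, adjusted p = 9.08e-05), and Hmga1 at 205, 89.6 and 153 CPM at 2 days and 47.3, 54.9 and 52.9 CPM at 6 weeks (log2 fold change 1.53 ± 0.23, adjusted p = 0.000237). Arid3a was at 478, 849 and 511 CPM at 2 days and 385, 368 and 351 CPM at 6 weeks (log2 fold change 0.73 ± 0.19, adjusted p = 0.00952). All were higher in every 2-day library. Lin28a, the paralog of Lin28b, was at 87.2, 167 and 104 CPM at 2 days and 99.2, 138 and 107 CPM at 6 weeks and did not pass (log2 fold change 0.06 ± 0.22, adjusted p = 0.85). Of 17 imprinted growth genes 13 were higher and 1 lower, median 2.33, most of them at a few CPM. Igf2, the fetal growth factor, was at 6.82, 2.24 and 9.04 CPM at 2 days and 0.0557, 0.132 and 0.109 CPM at 6 weeks (log2 fold change 5.88 ± 0.54, adjusted p = 5.19e-06). Igf2r, which clears it, was at 50.1, 62.3 and 44.2 CPM at 2 days and 95.4, 113 and 102 CPM at 6 weeks (log2 fold change -0.99 ± 0.13, adjusted p = 0.000114) and was the lower member. The stricter filter on low counts left 7 higher imprinted genes. H19, transcribed beside Igf2, was at 12.6, 5.93 and 15.7 CPM at 2 days and 0.0279, 0 and 0.191 CPM at 6 weeks (log2 fold change 7.23 ± 0.75, adjusted p = 1.29e-05, and 9.39 without 6-week replicate 3). Stromal markers summed to 130, 65.6 and 132 CPM at 2 days and 49.5, 45.3 and 57.3 CPM at 6 weeks, and their part in the imprinted gene result was not tested.

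Transcription factors of the granulocyte lineage gave 3 higher and 6 lower of 26 tested, median -0.06. The called share of this list was 34.6%, near the 40.4% of all tested genes. Cebpe, the factor of terminal granulocyte maturation, was at 151, 424 and 155 CPM at 2 days and 181, 291 and 230 CPM at 6 weeks (log2 fold change 0.06 ± 0.33, adjusted p = 0.908, and -0.61 with a call in the other direction without 2-day replicate 2). Spi1, the factor PU.1, was at 957, 1468 and 1017 CPM at 2 days and 1433, 1201 and 1326 CPM at 6 weeks (log2 fold change -0.20 ± 0.17, adjusted p = 0.36), and Gfi1 at 21.5, 11.3 and 15.6 CPM at 2 days and 13.2, 21 and 17.2 CPM at 6 weeks (log2 fold change -0.09 ± 0.21, adjusted p = 0.78). All 3 overlapped between the ages and none passed, though Spi1 did without 2-day replicate 2 (-0.41). Id2 was at 320, 336 and 402 CPM at 2 days and 105, 127 and 97.6 CPM at 6 weeks (log2 fold change 1.68 ± 0.13, adjusted p = 1.46e-06) and Per1, a clock gene, at 399, 412 and 390 CPM at 2 days and 92.4, 78.7 and 87.3 CPM at 6 weeks (log2 fold change 2.22 ± 0.15, adjusted p = 5.4e-07). Both were higher in every 2-day library. The lower factors included Ets1 (-0.92). With 2-day replicate 2 left out, 12 factors were lower.

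Many DNA replication genes were called higher at 2 days, but most of them overlapped between the ages. Replication genes gave 18 higher and 0 lower of 30 tested, median 0.67, among them Ccne2 (1.02) and Cdc6 (0.96). Every 2-day library lay above every 6-week library for 6 of the 30, against 24% of all tested genes. Chaf1b, which loads histones on new DNA, was at 14.4, 7.11 and 12 CPM at 2 days and 3.71, 7.23 and 5.22 CPM at 6 weeks (log2 fold change 1.05 ± 0.26, adjusted p = 0.00633). Mcm6, part of the replicative helicase, was at 64.5, 26.1 and 46.7 CPM at 2 days and 23.8, 26.7 and 20.4 CPM at 6 weeks (log2 fold change 0.95 ± 0.27, adjusted p = 0.0129). In both, replicate 2 was the lowest of the 2-day libraries and lay within the 6-week range. Mcm6 lost its call without 2-day replicate 1 (0.61) or 6-week replicate 3 (0.86). The number of higher replication genes was 7 with the 6 libraries alone, 5 without 2-day replicate 1, 6 without 2-day replicate 3, 6 without 6-week replicate 3, 8 without 6-week replicate 1 and 11 without 7-day replicate 1 or 3. Mitosis genes gave 0 higher and 5 lower of 28 tested, median -0.34, a share of lower genes below the 19.7% of all tested genes. Kif23, a motor of cell division, was at 41, 61.1 and 40.4 CPM at 2 days and 83.2, 82 and 91.1 CPM at 6 weeks (log2 fold change -0.85 ± 0.16, adjusted p = 0.00107), lower in all 2-day libraries. Top2a was at 113, 57.8 and 88.5 CPM at 2 days and 87.4, 135 and 104 CPM at 6 weeks, with overlap and no call (log2 fold change -0.33 ± 0.21, adjusted p = 0.227), and was called without 2-day replicate 1 (-0.59). The lower count was 15 without 2-day replicate 1, 9 without 6-week replicate 1, 2 without 2-day replicate 2 or 3 or 6-week replicate 2, 3 without 6-week replicate 3, 7-day replicate 1 or 3 or 14-day replicate 2, and 1 with the 6 libraries alone.

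Glycolysis and pentose phosphate genes gave 2 higher and 10 lower of 24 tested, median -0.31. Hk3, a myeloid hexokinase, was at 275, 441 and 252 CPM at 2 days and 715, 850 and 787 CPM at 6 weeks (log2 fold change -1.28 ± 0.19, adjusted p = 0.000258), and Hk2 at 49.2, 79.9 and 52.7 CPM at 2 days and 115, 143 and 134 CPM at 6 weeks (log2 fold change -1.11 ± 0.17, adjusted p = 0.000315). Pkm, pyruvate kinase, was at 2055, 2993 and 2275 CPM at 2 days and 2658, 2737 and 2642 CPM at 6 weeks, with a 95% interval -0.49 to 0.22 on the log2 scale. Oxidative phosphorylation gave 8 higher and 3 lower of 32 tested, median 0.16, against 20.7% higher and 19.7% lower of all tested genes. Sdhd (0.57), Sdhb (0.46) and Uqcrc2 (0.40) were higher. With the 6 libraries alone 6 glycolytic genes were lower. The higher glycolytic count was 4 without 2-day replicate 2 and 1 without 2-day replicate 3 or 6-week replicate 1 or 3. Of the oxidative genes 3 or 4 were higher without 2-day replicate 1 or 3, any 6-week replicate, 7-day replicate 1 or 3 or 14-day replicate 2, and 1 was lower without 2-day replicate 3, 6-week replicate 1 or 3 or 14-day replicate 3.

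Lipid genes also went both ways. Of fatty acid genes 11 of 34 were higher and 7 lower. Slc27a4, a fatty acid transporter, was at 756, 714 and 889 CPM at 2 days and 369, 399 and 361 CPM at 6 weeks (log2 fold change 1.06 ± 0.14, adjusted p = 7.17e-05). Plin2, a coat protein of lipid droplets, was at 240, 435 and 291 CPM at 2 days and 133, 129 and 122 CPM at 6 weeks (log2 fold change 1.33 ± 0.26, adjusted p = 0.00135), and Cpt1a, which brings fatty acids into mitochondria, at 194, 184 and 194 CPM at 2 days and 103, 100 and 95.7 CPM at 6 weeks (log2 fold change 0.94 ± 0.18, adjusted p = 0.0016). All 3 were higher in each 2-day library, while Pparg (-2.87), Lpl (-1.29) and Scarb1 (-0.87), abundant in macrophages, were lower. Without 2-day replicate 2, 12 fatty acid genes were lower. Cholesterol genes gave 1 higher and 9 lower of 27 tested, median -0.26. Together 37% were called, against 40.4% of all tested genes. Nr1h3, the sterol receptor LXR alpha, was at 3.52, 5.63 and 4.33 CPM at 2 days and 49.5, 48 and 55 CPM at 6 weeks (log2 fold change -3.50 ± 0.32, adjusted p = 4.42e-06), and its targets Abcg1 (-1.27) and Abca1 (-0.80) were lower too. Without 6-week replicate 3 the lower count was 5, and without 2-day replicate 1 or 2 the higher count was 2.

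The unfolded protein response, which widens the folding capacity of the endoplasmic reticulum, gave 2 higher and 17 lower of 26 tested, median -0.68. Xbp1, its main secretory factor, was at 85.1, 151 and 94.8 CPM at 2 days and 205, 201 and 197 CPM at 6 weeks (log2 fold change -0.87 ± 0.18, adjusted p = 0.0021). Calr, a chaperone, was at 216, 186 and 188 CPM at 2 days and 350, 391 and 368 CPM at 6 weeks (log2 fold change -0.91 ± 0.14, adjusted p = 0.000244), and Pdia6, a disulphide isomerase, at 58.1, 50.2 and 49.6 CPM at 2 days and 91.8, 104 and 94.7 CPM at 6 weeks (log2 fold change -0.88 ± 0.14, adjusted p = 0.000294). They were lower in all 2-day libraries. Atf4, the factor of the amino acid arm, was at 278, 269 and 280 CPM at 2 days and 148, 135 and 148 CPM at 6 weeks, higher at 2 days (log2 fold change 0.94 ± 0.26, adjusted p = 0.013), as was its target Asns (0.60). Of the other genes of that arm, Ppp1r15a (-0.78) and Chac1 (-2.15) were lower, with Chac1 at -3.26 without 2-day replicate 2, and Ddit3 (-0.96) and Trib3 (0.39) did not pass. Ddit3 did pass without 14-day replicate 1 (-0.96) or 2 (-0.98). Summed plasma cell markers, which include Xbp1, were 169, 210 and 166 CPM at 2 days and 1687, 1048 and 802 CPM at 6 weeks. Their part in this result was not tested.

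Heat-shock genes went both ways, 6 higher and 5 lower of 18 tested, median 0.16. Hspd1, a mitochondrial chaperone, was at 68.5, 49.2 and 54 CPM at 2 days and 33.7, 39.8 and 33.3 CPM at 6 weeks (log2 fold change 0.68 ± 0.16, adjusted p = 0.00447) and Hsp90aa1 at 148, 184 and 145 CPM at 2 days and 103, 98.2 and 90.5 CPM at 6 weeks (log2 fold change 0.71 ± 0.18, adjusted p = 0.00856), and both were higher. Hspa1a, the inducible chaperone, was at 9.45, 24.3 and 9.31 CPM at 2 days and 109, 64.6 and 91.1 CPM at 6 weeks (log2 fold change -2.63 ± 0.37, adjusted p = 0.00015, and -3.23 without 2-day replicate 2). Without 6-week replicate 3 the higher count was 3. In the Bcl2 family 2 of 14 were higher and 5 lower. Bcl2l1, which encodes the survival protein Bcl-xL, was at 89.1, 100 and 127 CPM at 2 days and 57.9, 52.5 and 50 CPM at 6 weeks (log2 fold change 0.98 ± 0.14, adjusted p = 0.000147), higher in all 2-day libraries. Mcl1, on which neutrophil survival depends, was at 1483, 2215 and 1815 CPM at 2 days and 2392, 1428 and 1735 CPM at 6 weeks, with a 95% interval -0.49 to 0.47. The lower members were the survival genes Bcl2a1b (-1.21), whose close copies may share its reads, and Bcl2l2 (-1.08) and the death genes Bbc3 (-0.95), Bid (-0.65) and Bax (-0.31). Bax lost its call without 2-day replicate 3 (-0.31) or 6-week replicate 3 (-0.28). The other higher member was the death gene Bok (4.05), below 1 CPM in every library. Of this list, 8 were lower without 2-day replicate 2.

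Antioxidant enzymes gave 5 higher and 10 lower of 24 tested, median 0.21. Gpx1 was at 336, 606 and 369 CPM at 2 days and 767, 699 and 709 CPM at 6 weeks (log2 fold change -0.73 ± 0.19, adjusted p = 0.00984) and Prdx4, a peroxiredoxin of the endoplasmic reticulum, at 10.6, 7.41 and 10.5 CPM at 2 days and 6.3, 5.14 and 4.95 CPM at 6 weeks (log2 fold change 0.80 ± 0.21, adjusted p = 0.00797). They stood on opposite sides without overlap between the ages. Nfe2l2, the factor NRF2, was lower (-0.71 ± 0.17), and of its targets Hmox1 (-1.20), also a red pulp macrophage marker, Gclm (-0.74) and Txnrd1 (-0.45) were lower. Its target Srxn1 (0.78) was higher, a call lost without 2-day replicate 3 (0.6) or 6-week replicate 2 (0.7) or 3 (0.73), and Nqo1 (0.67), Slc7a11 (0.50) and Gclc (0.23) did not pass. Slc7a11 passed as higher without 2-day replicate 1 (0.76) and Gclc without 2-day replicate 2 (0.46). The higher count was 8 without 2-day replicate 2 and 2 without 2-day replicate 3 or 6-week replicate 2.

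Iron genes gave 5 higher and 9 lower of 19 tested, median -0.48. Tfrc, which takes iron up, was at 51, 28.5 and 41.5 CPM at 2 days and 22.4, 19.6 and 17.7 CPM at 6 weeks (log2 fold change 1.02 ± 0.18, adjusted p = 0.000696), higher at 2 days. Ftl1, the ferritin light chain, was at 1405, 1862 and 1602 CPM at 2 days and 3400, 2943 and 3718 CPM at 6 weeks (log2 fold change -1.05 ± 0.17, adjusted p = 0.000497), and Slc40a1, the exporter ferroportin, at 247, 571 and 356 CPM at 2 days and 1012, 855 and 992 CPM at 6 weeks (log2 fold change -1.28 ± 0.24, adjusted p = 0.00112). Both were lower in all 2-day libraries. Steap4, a metalloreductase, was at 8.66, 83.9 and 18 CPM at 2 days and 621, 386 and 465 CPM at 6 weeks (log2 fold change -3.74 ± 0.71, adjusted p = 0.00123, and -5.2 without 2-day replicate 2). Slc40a1 and Hmox1 are red pulp macrophage markers and Tfrc an erythroid marker, and the part of those cells was not tested.

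Cysteine and aspartic proteases of the lysosome, which the stefins and cystatins restrain in part, were mostly lower, 2 higher and 11 lower of 14 tested, median -1.12, and Ctsk (-0.33) did not pass. Ctsb was at 313, 322 and 295 CPM at 2 days and 1539, 1563 and 1710 CPM at 6 weeks (log2 fold change -2.37 ± 0.16, adjusted p = 4.74e-07). Ctss, which trims the class II invariant chain, was at 72.5, 64.1 and 61 CPM at 2 days and 291, 266 and 300 CPM at 6 weeks (log2 fold change -2.12 ± 0.12, adjusted p = 1.42e-07), and Ctsh at 77.1, 91.2 and 79.8 CPM at 2 days and 187, 187 and 180 CPM at 6 weeks (log2 fold change -1.16 ± 0.10, adjusted p = 2.23e-06). In all 3 every 2-day library lay below every library of 6 weeks. Ctsl was at 82, 71.5 and 94.4 CPM at 2 days and 36.9, 29 and 31.6 CPM at 6 weeks (log2 fold change 1.35 ± 0.31, adjusted p = 0.00396) and Ctse at 86.1, 70.7 and 100 CPM at 2 days and 43.4, 31.7 and 41.2 CPM at 6 weeks (log2 fold change 1.15 ± 0.23, adjusted p = 0.00179), and these were higher. Summed markers of macrophages at large were 541, 817 and 503 CPM at 2 days and 3169, 3233 and 3438 CPM at 6 weeks, and their part in the cathepsin result was not tested. Wfdc17, an antiprotease of macrophages and neutrophils, was at 16, 60.7 and 19.8 CPM at 2 days and 328, 177 and 171 CPM at 6 weeks (log2 fold change -2.81 ± 0.65, adjusted p = 0.00435, and -3.65 without 2-day replicate 2).

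Ribosomal protein genes, taken as a reference group, gave 1 higher and 2 lower of 32 tested, median 0.01. Leaving out single libraries moved these counts to between 0 and 3 higher and 1 and 2 lower, with 3 higher without 2-day replicate 2. The levels at the 2 ages lay close for highly expressed genes such as Coro1a, a regulator of actin, at 2336, 3791 and 2576 CPM at 2 days and 3068, 2849 and 2972 CPM at 6 weeks with a 95% interval -0.42 to 0.36. The elongation factor gene Eef1a1 was at 2488, 1705 and 2210 CPM at 2 days and 2264, 2161 and 2210 CPM at 6 weeks, with a 95% interval -0.38 to 0.28, and Grina at 1756, 2374 and 2166 CPM at 2 days and 2342, 1645 and 1973 CPM at 6 weeks, with a 95% interval -0.34 to 0.50. For 2586 genes, 16.7% of those tested, the interval lay within 0.5 of 0 on the log2 scale.

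Markers of other cells of the spleen differed strongly, and with opposite signs. Of 23 mast cell markers 22 were higher and 0 lower, and of 13 basophil markers 10 and 0. Mcpt4, a mast cell chymase, was at 1244, 603 and 1226 CPM at 2 days and 0.111, 0.106 and 0.109 CPM at 6 weeks (log2 fold change 13.16 ± 0.53, adjusted p = 6.94e-09), Cma1, another chymase, at 993, 547 and 986 CPM at 2 days and 2.09, 2.41 and 1.69 CPM at 6 weeks (log2 fold change 8.67 ± 0.35, adjusted p = 7.84e-09), and Cpa3, carboxypeptidase A3, at 773, 481 and 824 CPM at 2 days and 0.947, 0.9 and 0.437 CPM at 6 weeks (log2 fold change 9.82 ± 0.37, adjusted p = 4.59e-09). Every 2-day library lay far above the 6-week libraries in these 3. Mcpt8, a protease that marks basophils, was at 61.1, 35.4 and 63.8 CPM at 2 days and 0.808, 2.83 and 0.574 CPM at 6 weeks (log2 fold change 5.24 ± 0.49, adjusted p = 5.62e-06), and Prss34, another basophil protease, at 116, 49.8 and 99.4 CPM at 2 days and 3.32, 9.77 and 1.83 CPM at 6 weeks (log2 fold change 4.15 ± 0.54, adjusted p = 8.88e-05). Both were also higher in all 2-day libraries, and at 6.26 and 5.1 without 6-week replicate 2. Hdc, which makes histamine in basophils and mast cells and is also found in myeloid cells, was at 1307, 1235 and 1554 CPM at 2 days and 1601, 1424 and 1400 CPM at 6 weeks, with overlapping libraries (log2 fold change -0.11 ± 0.15, adjusted p = 0.577). The mast cell markers Tph1 and Mrgprx2 had 0 counts at 6 weeks and were at least 589-fold and 351-fold higher at 2 days.

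Eosinophil markers went both ways, 6 higher and 4 lower of 13. Prg2, major basic protein, was at 61.4, 11.1 and 26.4 CPM at 2 days and 2.59, 2.54 and 0.492 CPM at 6 weeks (log2 fold change 4.14 ± 0.62, adjusted p = 0.000233), and Epx, eosinophil peroxidase, at 16.4, 0.626 and 5.34 CPM at 2 days and 0.39, 0.291 and 0.0547 CPM at 6 weeks (log2 fold change 4.92 ± 0.96, adjusted p = 0.00148). Ccr3, the eotaxin receptor, was at 1.2, 1.65 and 1.26 CPM at 2 days and 94.4, 89.1 and 95.7 CPM at 6 weeks (log2 fold change -6.09 ± 0.39, adjusted p = 3.5e-07). The granule protein genes Prg2 and Epx were thus higher and the receptor Ccr3 lower at 2 days, without overlap between the ages. Prg2 and Epx were at 3.31 and 3.61 without 2-day replicate 1. Erythroid markers gave 20 higher and 0 lower of 24, with Sptb, a spectrin of the red cell membrane, at 36.4, 9.71 and 27.4 CPM at 2 days and 6.77, 3.47 and 4.84 CPM at 6 weeks (log2 fold change 2.29 ± 0.39, adjusted p = 0.000614). All 2-day libraries lay above those of 6 weeks for 12 of the 24, against 24% of all tested genes. The summed erythroid levels overlapped, with 2-day replicate 2 at 158 CPM and 6-week replicate 1 at 161 CPM. The 4 haemoglobin genes did not pass, with Hbb-bs at 256, 178 and 242 CPM at 2 days and 234, 94 and 69.5 CPM at 6 weeks and overlapping libraries (log2 fold change 0.77 ± 0.52, adjusted p = 0.259). Without 6-week replicate 1, 3 of them were higher, with Hbb-bs at 1.46, and without 14-day replicate 1, 1 was.

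Most macrophage markers and many monocyte markers were lower at 2 days. Red pulp macrophage markers gave 0 higher and 17 lower of 18, with Vcam1 at 56, 56 and 50.4 CPM at 2 days and 674, 646 and 664 CPM at 6 weeks (log2 fold change -3.61 ± 0.37, adjusted p = 1.32e-05), Axl, a receptor for dying cells, at 45.9, 35.6 and 39.3 CPM at 2 days and 490, 519 and 556 CPM at 6 weeks (log2 fold change -3.69 ± 0.35, adjusted p = 6.13e-06), and C1qa, a complement component, at 71.1, 64.2 and 69.4 CPM at 2 days and 455, 504 and 511 CPM at 6 weeks (log2 fold change -2.84 ± 0.33, adjusted p = 3.59e-05). In all 3 the 6-week libraries lay above every 2-day library. Against this, F13a1, a transglutaminase of monocytes and megakaryocytes, was at 59.1, 64.6 and 50.9 CPM at 2 days and 1.53, 2.83 and 1.86 CPM at 6 weeks (log2 fold change 4.80 ± 0.26, adjusted p = 9.52e-08), and Dab2, an endocytic adaptor of macrophages, at 16.7, 12.3 and 16.7 CPM at 2 days and 2.81, 2.41 and 2.08 CPM at 6 weeks (log2 fold change 2.64 ± 0.20, adjusted p = 1.33e-06). Both were higher at 2 days. Apoe was at 210, 249 and 190 CPM at 2 days and 1079, 1136 and 1157 CPM at 6 weeks (log2 fold change -2.38 ± 0.15, adjusted p = 3.51e-07). Non-classical monocyte markers gave 1 higher and 10 lower of 13, led in fold by Adgre4 (-3.82), Cd300e (-3.80) and Ace (-3.62), and the higher one was Nr4a1. Classical monocyte markers gave 1 higher, F13a1, and 7 lower of 13, and Fn1 (0.97), Lgals3 (0.37), Ccr2 (-0.10), Plac8 (-0.21) and Ly6c2 (0.02) did not pass. Fn1 passed as higher without 14-day replicate 1 (0.96) and Lgals3 without 2-day replicate 1 (0.48).

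Most plasma cell, NK cell and T cell markers were lower at 2 days, as were 5 of 15 B cell markers. Plasma cell markers gave 0 higher and 11 lower of 12, with Igha, the immunoglobulin A heavy chain, at 1.07, 0.296 and 0.219 CPM at 2 days and 880, 436 and 301 CPM at 6 weeks (log2 fold change -9.93 ± 1.06, adjusted p = 1.67e-05, and -11.05 without 2-day replicate 1). NK cell markers gave 0 higher and 10 lower of 12, with Prf1, perforin, at 1.05, 0.527 and 0.52 CPM at 2 days and 13.6, 17.8 and 12.5 CPM at 6 weeks (log2 fold change -4.37 ± 0.31, adjusted p = 8.08e-07). T cell markers gave 2 higher and 11 lower of 17, with Cd8a at 1.02, 0.461 and 0.959 CPM at 2 days and 6.6, 5.83 and 5.3 CPM at 6 weeks (log2 fold change -2.84 ± 0.35, adjusted p = 6.01e-05). For these genes each 6-week library was above each 2-day library. B cell markers gave 1 higher and 5 lower of 15, the higher one being Vpreb3 (1.22), a surrogate light chain gene of immature B cells, and the lower ones including Fcer2a (-3.62) and Bank1 (-1.67). Leaving out 14-day replicate 1, which enters through the shared spread, gave 8 lower B cell markers. The called share of the B cell list was 40%, near the 40.4% of all tested genes.

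Stromal and endothelial markers were at low levels. Of 14 stromal markers 12 were higher and 1 lower, with Col1a2 at 14.2, 2.7 and 15.5 CPM at 2 days and 0.111, 0.159 and 0.137 CPM at 6 weeks (log2 fold change 6.28 ± 0.71, adjusted p = 2.82e-05). The stricter filter left 7 higher. The lower one was called in 0 cases without 2-day replicate 1 or 3 or 6-week replicate 1 or 3, and 2 were lower without 14-day replicate 1. Of 12 endothelial markers 8 were higher and 3 lower, and 5 were higher with the 6 libraries alone. Their summed level was lower at 2 days, at 99.4, 89.6 and 87.4 CPM at 2 days and 148, 139 and 146 CPM at 6 weeks. Stab2, a scavenger receptor of spleen and liver sinusoids, was the largest of the lower ones, at 8.35, 3.23 and 5.7 CPM at 2 days and 54.6, 51.7 and 56 CPM at 6 weeks (log2 fold change -3.22 ± 0.43, adjusted p = 0.000101). Megakaryocyte and platelet markers gave 7 higher and 2 lower of 14, with Pf4, platelet factor 4, at 8.58, 11.5 and 8.71 CPM at 2 days and 0.39, 0.689 and 0.683 CPM at 6 weeks (log2 fold change 4.02 ± 0.42, adjusted p = 1.54e-05). Without 2-day replicate 3 or 6-week replicate 1, 1 was lower.

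**Figure D5:**
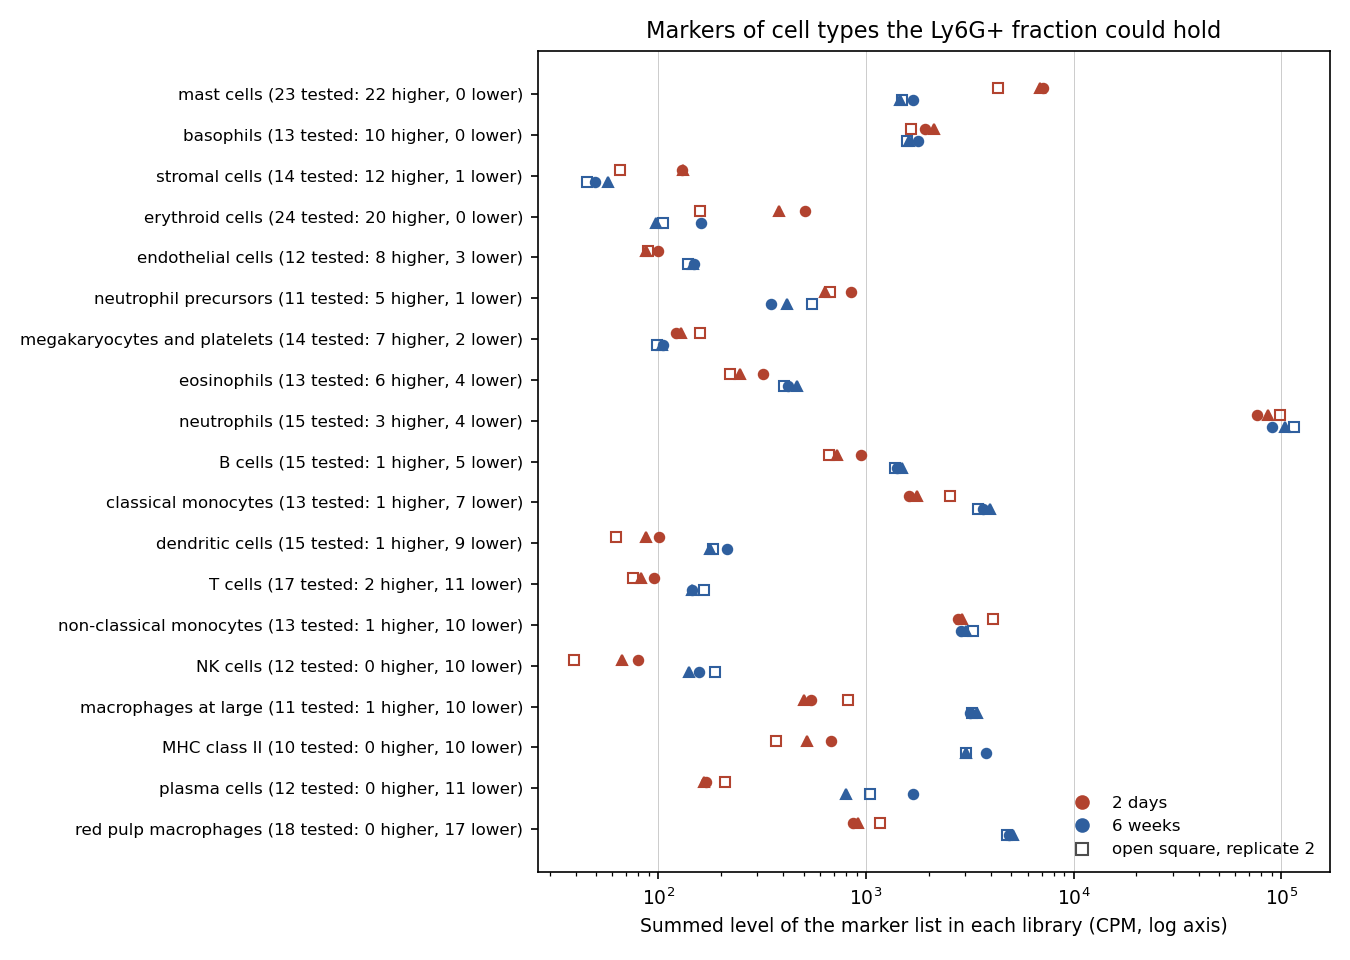
Summed level of each marker list in each library (CPM, log axis), red for 2 days and blue for 6 weeks, with replicate 2 as open squares and the numbers of tested, higher and lower markers beside each name. Mast cell markers lie to the right at 2 days and red pulp macrophage, plasma cell and class II markers to the right at 6 weeks, while neutrophil, erythroid, basophil and non-classical monocyte sums overlap. The basophil sum is mostly Hdc, also found in myeloid cells, and the non-classical monocyte sum mostly Pglyrp1, also a secondary granule gene. Of 13 markers each, 10 basophil markers were higher and 10 non-classical monocyte markers lower.

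A few genes were on at 1 age and at 0 counts in all 3 libraries of the other. At least 30 counts in each 2-day library against 0 at 6 weeks were found for 27 genes, and the reverse for 14. The 27 include the Y-linked Ddx3y, Eif2s3y and Kdm5d, for which sex and age cannot be told apart. They also include Csta1 and other entries of the stefin stretch, and mast cell genes such as Tpsab1, Mrgprb1 and Tph1. Calca, which encodes calcitonin and the peptide CGRP, was at 17.6, 5 and 14.8 CPM in the 2-day libraries, at least 459-fold higher. Gnai1, an inhibitory G protein subunit, was at 9.25, 8.53 and 10.2 CPM and at least 343-fold higher, and Hs6st2, a heparan sulphate sulphotransferase, at 7.97, 5.43 and 6.74 CPM and at least 247-fold higher. In the other direction, Gm26825, a predicted long non-coding RNA (chr5:5781530-5783636, + strand), was at 273, 163 and 161 CPM at 6 weeks, at least 7026-fold lower at 2 days. It was also at 0 at 7 and 14 days. Itln1, intelectin 1, at 4.32, 2.49 and 4.07 CPM at 6 weeks, was at 0 at 7 and 14 days as well. Klra4 and Klra8, of the Ly49 receptors of NK cells, were at 3.46, 4.18 and 2.98 CPM and 5.85, 5.14 and 4.26 CPM at 6 weeks and at least 125-fold and 180-fold lower at 2 days. Itln1, Ifi202b and the Ly49 genes are known to differ between inbred mouse strains, and for them strain and age cannot be told apart.

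Among named long non-coding RNAs, Platr7 was at 19.1, 15.9 and 17.9 CPM at 2 days and 3.23, 3.18 and 3.88 CPM at 6 weeks (log2 fold change 2.36 ± 0.18, adjusted p = 1.12e-06), and Snhg3, a host of small nucleolar RNAs, at 7.36, 5.5 and 6.25 CPM at 2 days and 2.28, 1.72 and 3.01 CPM at 6 weeks (log2 fold change 1.45 ± 0.23, adjusted p = 0.000398). AW112010, an RNA of activated immune cells, was at 2.96, 2.04 and 2.14 CPM at 2 days and 35.4, 38.2 and 40.2 CPM at 6 weeks (log2 fold change -3.99 ± 0.29, adjusted p = 8.57e-07). The first 2 were higher and the last lower in all 2-day libraries. Among the largest falls outside the lists, Itgad, an integrin chain of red pulp macrophages, was at 7.79, 6.32 and 6.66 CPM at 2 days and 289, 299 and 311 CPM at 6 weeks (log2 fold change -5.43 ± 0.39, adjusted p = 6.94e-07), and Slc16a9, a monocarboxylate transporter, at 0.306, 0.362 and 0.301 CPM at 2 days and 20.8, 21.2 and 23.6 CPM at 6 weeks (log2 fold change -6.07 ± 0.51, adjusted p = 2.51e-06). Slc6a4, the serotonin transporter of mast cells and platelets, was at 90.7, 41.2 and 74.9 CPM at 2 days and 0.0279, 0.053 and 0.0547 CPM at 6 weeks (log2 fold change 10.47 ± 0.55, adjusted p = 7.31e-08) and higher in every 2-day library.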

How the data were processed

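The deposited table holds expected (estimated) counts per Ensembl gene, which the authors made with RSEM 1.2.3 against mm10, per the submitters' processing notes, which also name DESeq2; polyadenylated RNA was reverse transcribed with random hexamers, per the labels' protocols. The counts were rounded, and the 38887 identifiers were matched to GENCODE M21 (GRCm38), which gave 37570 a symbol.

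A single edgeR 4.0.16 quasi-likelihood model (R 4.3.3, TMM scaling, filterByExpr with a minimum count of 10, no block) was fitted to all 12 libraries, so that the 4 ages share the estimate of spread, and 2 days was tested against 6 weeks with Benjamini-Hochberg adjustment over 15494 genes. A gene was called at an adjusted p under 0.05. Errors of log2 fold changes are SE, those of mean levels SD (n = 3). A fold against an age at 0 counts uses a floor of 3 counts over that age. Replicate numbers did not pair the ages (correlations of deviations -0.0647, -0.133 and -0.0521). In data simulated for this comparison (14574 genes tested), 50 genes were changed at each size and sign, and all others kept their 6-week mean. Of genes changed by log2 1 and -1, 62% and 64% were recovered, and 82% and 80% at 2 and -2. Unchanged genes made up 8.28% of calls. Far fewer genes changed there than were called in the data, so these rates hold for that setting only.

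The gene lists (63) and the named genes were chosen with earlier results of these data known. Named genes are the largest changes in fold and in CPM, up to 3 called members each way of each list with the smallest p and its most abundant member, a set of neutrophil and suppressor genes, 6 abundant genes with narrow intervals, long non-coding RNAs with the largest changes, and further list members. Alternatives were other scalings, filters and tools, the 6 libraries alone, a replicate block, and leaving out each library. Values of some genes are not reported here.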

Additional observations from a re-analysis of the deposited data

How the results depend on the processing

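The numbers of genes higher at 2 days and of genes lower at 2 days were 3215 and 3082 with relative log expression scaling, 3137 and 2927 with library totals alone, 2988 and 3149 without the low count filter, 2922 and 2658 with a stricter filter, 3459 and 3303 with DESeq2 1.42.0, 3096 and 3204 with limma-voom 3.58.1, and 2246 and 2439 with the 6 libraries alone. Leaving out single libraries gave 2314 to 4123 higher and 2417 to 4047 lower genes, the lowest higher count without 2-day replicate 3 and both highest counts without 2-day replicate 2. The replicate block, an added term for the replicate number, gave 2854 higher and 2818 lower genes, and since the numbers do not pair the samples no call is read from it. The number of higher imprinted growth genes went from 13 to 7 with the stricter filter, which tests fewer low genes. Of 1081 named and listed genes 650 were called, 512 of these under every alternative that gave a value, and 138 were lost under at least 1. Without 2-day replicate 2, 4 genes reversed: leaving out single libraries gave -0.61 to 0.27 for Cebpe, -0.43 to 0.34 for Fcgr3, -0.31 to 0.23 for Ahsa1 and -0.41 to 0.28 for Ncoa4. The cause was not tested. Medians of the 5 lists with a gene at 0 counts in an age were the same with such genes at their bound. Depth limits the statements on genes below about 1 CPM.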
